A study of Mus musculus with 4 samples.

Results

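A set of 8 genes of the cytotoxic granule and of neighbouring killing pathways was followed in single thymic iNKT cells: the granzymes Gzma, Gzmb and Gzmc, the pore-former Prf1, the granule proteins Nkg7 and Ctsw, the death ligand Fasl and the protease inhibitor Serpinb9. They were taken by gene symbol, 8 of the 31053 genes counted, and all 8 were measured in all 4 libraries. Invariant natural killer T (iNKT) cells recognise lipids on CD1d through a T cell receptor of limited variety, and here thymocytes binding a CD1d tetramer loaded with PBS57 were sorted from untreated mice 8 to 9 weeks old, of which 2 were C57BL/6 and 2 were Hivep3-/- on the C57BL/6 background. Each mouse gave 1 library, made with 10x Genomics 5' chemistry from an equal mix of CD44low and CD44high cells, so the sort set part of every share of cells. The comparisons asked which granule genes mark which states of iNKT1 cells, whether Gzma and Gzmb occur in the same cells, and where the genotypes differ.

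The 4 libraries held 31381738 to 48291764 UMIs (unique molecular identifiers, each counting 1 captured RNA), and 19647 cells passed the filters, 3651 to 7231 in each library. Kept cells were shallower in C57BL/6, with medians of 4596 and 5268 UMIs, than in the libraries labelled Hivep3-/-, with 6833 and 6491. Hivep3 itself was at 38.5 and 36.4 CPM (a gene's UMIs divided by all UMIs of the same cells and scaled to 1e+06) in C57BL/6. It was at 101.3 and 68.0 CPM in the libraries labelled Hivep3-/-, higher where the label alone would lead to a lower level. The sources used here do not say which exons are deleted, so the level neither bears out nor contradicts the label. The libraries differ in sex: C57BL/6 replicate 1 had 14609 UMIs of Xist and 0 of Y-linked genes, whereas the other 3 libraries had 3 to 25 of Xist and 3568 to 4879 of Y-linked genes, so that where C57BL/6 replicate 1 stands apart its sex and the library cannot be told apart. Of the kept barcodes, 185 occurred in 2 or more libraries.

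As background, a killer lymphocyte stores granzymes, which are serine proteases, with perforin in secretory granules and releases them at the contact with its target. Perforin opens the way into the target, where granzyme B cleaves caspases and other proteins and granzyme A acts as a tryptase. iNKT1 cells, the T-bet dependent branch of thymic iNKT cells, share much of this programme with natural killer cells, whereas iNKT2 and iNKT17 cells are known for cytokines.

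The genes lie at chr13:113093825-113100981 for Gzma, chr14:56258838-56262260 for Gzmb and chr14:56231441-56234656 for Gzmc, all on the minus strand, with Gzmb and Gzmc next to each other in 1 granzyme cluster (GRCm38, GENCODE vM21). Prf1 is at chr10:61297833-61304680 (plus), Nkg7 at chr7:43437073-43438249 (plus), Ctsw at chr19:5465043-5468507 (minus), Fasl at chr1:161780689-161788495 (minus) and Serpinb9 at chr13:33003250-33017957 (plus). Ctsw overlaps Fibp on the other strand. No 90-base stretch of a transcript of these 8 genes was found in a transcript of another gene, so near-identical copies did not split their counts at that length. The 250 bases before the RefSeq start of the 3 granzymes are shown, because the results by state and by genotype turn on them. Each is written 5' to 3' on the strand of the gene, from RefSeq on GRCm38.p6, at chr13:113100982-113101231 for Gzma, chr14:56262335-56262584 for Gzmb and chr14:56234658-56234907 for Gzmc (minus strand). Capitals mark AGGTGT, a core that T-box factors such as T-bet and Eomes bind, and TGTGGT, a core that Runt factors bind, each on either strand (as ACACCT and ACCACA on the other).
Gzma: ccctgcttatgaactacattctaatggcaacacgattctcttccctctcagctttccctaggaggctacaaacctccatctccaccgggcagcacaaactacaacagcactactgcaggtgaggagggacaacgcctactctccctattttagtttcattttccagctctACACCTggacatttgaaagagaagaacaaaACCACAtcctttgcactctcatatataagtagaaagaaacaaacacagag
Gzmb: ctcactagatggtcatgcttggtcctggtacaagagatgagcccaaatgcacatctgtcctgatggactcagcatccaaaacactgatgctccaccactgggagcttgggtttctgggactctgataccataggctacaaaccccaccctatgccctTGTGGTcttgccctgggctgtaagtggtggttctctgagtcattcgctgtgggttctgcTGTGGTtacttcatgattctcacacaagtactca
Gzmc: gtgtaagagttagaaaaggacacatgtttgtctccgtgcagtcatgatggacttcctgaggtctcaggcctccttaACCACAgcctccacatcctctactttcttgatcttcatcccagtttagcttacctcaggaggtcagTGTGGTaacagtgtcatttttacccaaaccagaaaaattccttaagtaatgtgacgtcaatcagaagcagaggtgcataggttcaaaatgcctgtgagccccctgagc
The window of Gzma held 1 match of AGGTGT and 1 of TGTGGT, on the minus strand of the gene, starting 80 and 50 bases before the start. The windows of Gzmb and Gzmc held 2 matches of TGTGGT each and none of AGGTGT. Of the 7 genes with a window (Ctsw had none), 3 held AGGTGT (Gzma, Prf1 and Nkg7) and 5 held TGTGGT (these 3, Gzmb and Gzmc). Of all 32851 windows of this length, 11.8% held AGGTGT and 14.05% held TGTGGT. A match is a description of letters and not a site in use.

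Clustering, done without the 8 genes, gave 13 clusters. Clusters 0, 2, 3, 5 and 7 were iNKT1-like and held 11656 cells. Their level of Tbx21, which encodes T-bet, was 113 to 126 CPM, against 0.824 to 26.1 CPM in the stage 0-like, cycling-like, iNKT2-like and iNKT17-like clusters. Cluster 0 was led by Dusp1, Klrb1c and Il12rb2, cluster 5 by Ccl4, F2rl2 and Xcl1, and cluster 7 by the interferon-response genes Ifit3, Ifit1 and Cxcl10. Clusters 2 and 3 carried at least 3 late iNKT1 markers among their leading genes and are called late here: cluster 2 was led by Ccl5, Ifitm1, Tyrobp and Ncr1, and cluster 3 by Ifitm2, Klra5 and Styk1. Cluster 8, led by Tnni1, Htra3 and Klrb1a, and cluster 12, of low UMI counts, had no name. They held 2.60% and 0.876% (cluster 8) and 1.16% and 0.110% (cluster 12) of the cells of C57BL/6 replicates 1 and 2, against 6.00% and 8.45%, and 0.348% and 0.0720%, in the libraries labelled Hivep3-/-.

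Gzma and Gzmb marked the iNKT1-like cells in different ways. Gzma, the tryptase, was concentrated in cluster 2, at 2258 and 2562 CPM in C57BL/6 replicates 1 and 2 and at 847 and 851 CPM in the libraries labelled Hivep3-/- (mean 1629.5 ± 910, SD, n = 4 libraries). Cluster 3 followed at 373 ± 278 CPM, then cluster 5 at 228 ± 131 and cluster 7 at 173 ± 69.8, while cluster 0, the largest iNKT1-like cluster, stood at 21.0 ± 9.18 CPM. The lowest library of cluster 2 lay above the highest of cluster 3, which had 667 CPM, and the lowest of cluster 7 lay above the highest of cluster 0. Clusters 3, 5 and 7 overlapped with their neighbours in this order. The level in cluster 0 overlapped with that of iNKT17-like cells (22.5 ± 31.8 CPM), where 1 cell of Hivep3-/- replicate 2 held all 78 UMIs of that library. In iNKT2-like cells Gzma was at 2.58 ± 1.57 CPM and in stage 0-like cells at 4.62 ± 2.33 CPM.

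Gzmb, the caspase-cleaving granzyme, was found in every iNKT1-like cluster. It was at 989 ± 276 CPM in cluster 7, 961 ± 268 in cluster 5, 932 ± 223 in cluster 3, 669 ± 211 in cluster 2 and 519.8 ± 138 in cluster 0, and each neighbouring pair in this order overlapped between libraries. Below them came a gap, to 35.6 ± 16.7 CPM in iNKT17-like and 10.1 ± 6.84 CPM in iNKT2-like cells, with no overlap. From the lowest to the highest iNKT1-like cluster Gzmb spanned 0.93 and Gzma 6.28 on the log2 scale of mean CPM. The span of Gzma depended on how finely the cells were clustered, at 4.30 on the log2 scale with resolution 0.4 and 7.56 with resolution 1.2, and that of Gzmb at 0.54 and 1.85. Clusters are made from the same cells, so these values describe the states and carry no test.

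**Figure D1:**
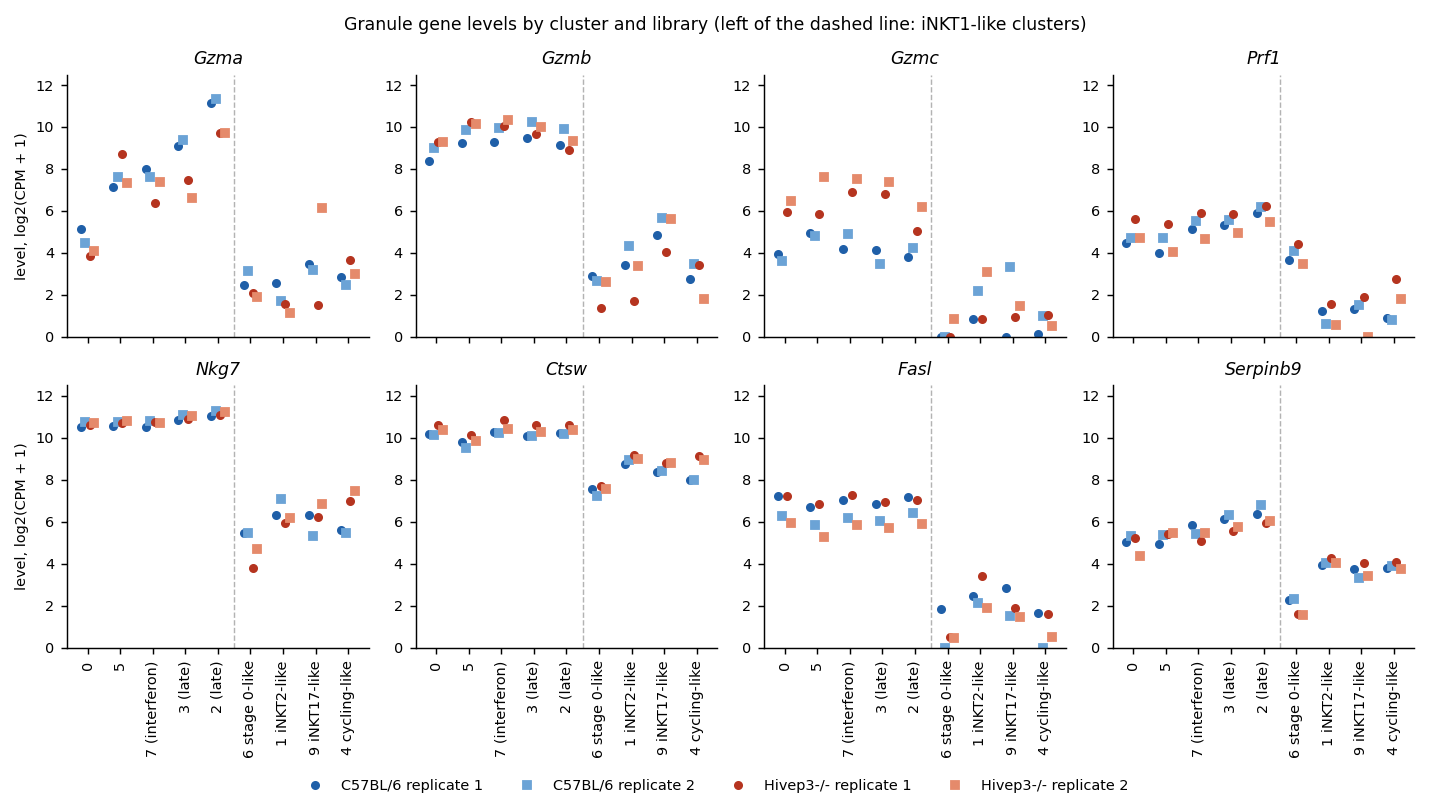
Level of each of the 8 granule genes in each library (points; blue, C57BL/6; red, labelled Hivep3-/-), as log2 of CPM + 1, in the 5 iNKT1-like clusters (left of the dashed line) and in the stage 0-like, iNKT2-like, iNKT17-like clusters and 1 cycling-like cluster with at least 50 cells in every library. Gzma rises from cluster 0 (21.0 CPM on average) to cluster 2 (1629.5 CPM), whereas Gzmb lies between 519.8 and 989 CPM on average in all 5.

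Gzmc, encoded beside Gzmb, was likewise highest in iNKT1-like clusters, with 33.9 ± 26.9 CPM in cluster 2 to 86.8 ± 78.4 CPM in cluster 7 and at most 3.19 ± 3.21 CPM in the stage 0-like, iNKT2-like, iNKT17-like and largest cycling-like clusters. Neighbouring iNKT1-like clusters overlapped, and the spread within each came with the genotype, as described below for each library. The granule components followed other orders. Prf1, the pore-former, was highest in cluster 2 (62.0 ± 14.2 CPM) and lowest of the 5 in cluster 5 (24.3 ± 12.3 CPM), and Serpinb9, the inhibitor that protects a cell from granzyme B, likewise in cluster 2 (80.3 ± 22.6 CPM) with cluster 0 last (31.7 ± 8.49 CPM). Nkg7, a membrane protein needed for granule release, was at 2306 ± 176 CPM in cluster 2 and 2016 ± 164 in cluster 3, and every library of these late clusters lay above every library of clusters 0, 5 and 7 (1603 to 1668 CPM on average). Stage 0-like cells held more Prf1 (14.5 ± 4.71 CPM) than iNKT2-like cells (1.07 ± 0.704 CPM), without overlap between libraries, although their Gzma, Gzmb and Nkg7 were low.

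Fasl did not separate the iNKT1 states, and Ctsw was lowest in cluster 5. Ctsw, a cysteine protease of cytotoxic lymphocytes, was at 922 ± 162 CPM there and at 1246 to 1415 ± 282 CPM in clusters 0, 2, 3 and 7. Its span over the 5 clusters was 0.62 on the log2 scale of mean CPM, against 0.52 for Nkg7. It was also the member least restricted to these clusters, with 504 ± 56.2 CPM in iNKT2-like, 391.5 ± 66.7 in iNKT17-like and 184 ± 25.3 CPM in stage 0-like cells. Fasl, the ligand of the death receptor Fas, was at 77.9 ± 36.4 to 108 ± 45.6 CPM in the 5 clusters and at most 5.04 ± 3.19 CPM in the 4 clusters of other classes. Its spread within a cluster came from the replicates: cluster 0 held 147 and 76.9 CPM in C57BL/6 and 147 and 61.4 CPM in the libraries labelled Hivep3-/-, so that replicate 1 was the higher one in both genotypes. Whether Fasl differed between clusters within a library was not tested.

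The UMIs of Gzma were gathered in few cells. The 5% of iNKT1-like cells with most Gzma held 80.1% and 83.9% of its UMIs in C57BL/6 and 94.3% and 86.8% in the libraries labelled Hivep3-/-, whereas the top 5% of cells for Gzmb held 29.0% to 32.2% of Gzmb UMIs. For Nkg7 that share was 12.3% to 13.7%. Gzmc was as concentrated as Gzma, with 86.5% to 100% of its UMIs in the top 5% of cells (in C57BL/6 only 2.85% and 4.59% of cells had any), and its highest cell held 166 UMIs, in Hivep3-/- replicate 2. A small group of 47 cells with Klrg1, S1pr5 and Zeb2, genes known from circulating effector lymphocytes, held 10422 CPM of Gzma in Hivep3-/- replicate 1, which contributed 38 of them, and 26.7% of all Gzma UMIs of iNKT1-like cells in that library. The other libraries contributed 1, 3 and 5 such cells. These cells were found at a finer resolution, after the values were seen. Of the 47 cells, 95.7% had a UMI of Cd3e and 34.0% one of Trac, and the group held 93.7 CPM of the natural killer (NK) cell receptor gene Ncr1 and no Eomes. In the iNKT1-like clusters 57.3% to 77.9% of cells had a UMI of Trac. Zbtb16, which encodes PLZF, was at 8.92 CPM in the group and at 19.4 to 80.1 CPM in those clusters.

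Over the 36 sums of 9 clusters and 4 libraries, the genes whose log2(CPM + 1) followed Gzma most closely among 5256 genes were Glipr2 and Ly6c2 (r = 0.90 for each), Sidt1 (0.89), Kcnj8 and Tyrobp (0.88 for each). For Gzmb they were Fgl2 (0.98), Styk1 (0.97), Klrc2, Mbnl1 and Stat4 (0.96 for each). The r of Gzma with Gzmb over the same sums was 0.83, and that of Gzmb with Nkg7 was 0.95. The sums share libraries and depth, so these values are a description.

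Gzma was lower in the libraries labelled Hivep3-/- inside the late clusters, but over all iNKT1-like cells the difference did not pass the test. In cluster 2 the 2258 and 2562 CPM of C57BL/6 stood against 847 and 851 CPM, a log2 fold change of -1.57 (SE 0.16, Benjamini-Hochberg adjusted p 0.00821 by quasi-likelihood F test in edgeR, from 2 libraries of each genotype). In cluster 3 it was 551 and 667 CPM against 178 and 95.9 CPM, a log2 fold change of -2.24 (SE 0.24, adjusted p 0.00336). Both libraries labelled Hivep3-/- lay below both of C57BL/6 in each of the 2 clusters. Gzma was the only one of the 8 genes called in cluster 2, where 0.319% of 9089 genes were called, and 1 of 2 in cluster 3, where 0.427% of 8907 genes were. With any 1 library left out, the log2 fold changes ran from -1.66 to -1.47 in cluster 2 and from -2.69 to -1.92 in cluster 3. Such fits leave 1 genotype with a single library, which is assumed to vary like those of the other genotype, so calls made or kept in them are no added support here or below. Without the 47 Klrg1 S1pr5 Zeb2 cells, the fall in cluster 2 was -1.90 (adjusted p 0.0102).

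In the other iNKT1-like clusters Gzma was not called. The genotypes did not overlap in clusters 0 and 7. Such a gap between 2 libraries and 2 has an exact permutation p of 0.333 and establishes no difference, here or below. The share of all genes without overlap is not given. Cluster 0 held 33.9 and 20.9 CPM in C57BL/6 and 13.3 and 15.9 CPM in the libraries labelled Hivep3-/- (log2 fold change -1.01, SE 0.28, adjusted p 0.415). Cluster 7 held 251 and 194 CPM against 83.1 and 164 CPM (-0.92, SE 0.28, adjusted p 0.320), and cluster 5 held 138 and 193 CPM against 421 and 160.0 CPM (0.69, SE 0.32, adjusted p 0.862). Hivep3-/- replicate 1 decided the direction in cluster 5, where the difference was -0.09 without it; without Hivep3-/- replicate 2 it was 1.18 (adjusted p 3.94e-05, with the lone library assumed to vary like the C57BL/6 pair). Under the same assumption the differences in clusters 0 and 7 were -1.30 and -1.10 without C57BL/6 replicate 2, and that in cluster 7 was -1.54 without Hivep3-/- replicate 2, each past the threshold. Summed over the late clusters Gzma had a log2 fold change of -1.37 (SE 0.15, adjusted p 0.00561), and over clusters 0, 5 and 7 its log2 fold change was 0.58 (SE 0.27, adjusted p 0.686). The difference between these 2 changes, tested as an interaction with library as a block, was -1.97 (SE 0.18, adjusted p 3.32e-06), and Gzma and Gzmb were the 2 genes of the 8 called, beside 0.803% of 10712 genes. The split into late and other clusters was chosen after the values were seen, so the interaction p-values alone do not establish a difference.

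Over all iNKT1-like cells Gzma was at 431 and 423 CPM in C57BL/6 and at 346 and 319 CPM in the libraries labelled Hivep3-/- (log2 fold change -0.45, SE 0.12, adjusted p 0.232, not called). It was -0.72 (adjusted p 0.0834) where the 8 genes were allowed among the clustering genes and -0.66 (adjusted p 0.158) without the Klrg1 S1pr5 Zeb2 cells, not called either. The clusters were mixed differently: cluster 0 held most iNKT1-like cells in C57BL/6 (1923 of 3581 and 1277 of 2486), whereas the late clusters 2 and 3 held 1488 of 3174 and 1243 of 2415 in the libraries labelled Hivep3-/-, and 1055 and 655 in C57BL/6. When each library's cluster levels were averaged with the same cluster weights, Gzma was at 615 and 694 CPM in C57BL/6 against 268 and 232 CPM, a log2 difference of -1.39, with an exact permutation p of 0.333, the smallest that 2 libraries against 2 can give. Over all kept cells the 132 and 209 CPM of C57BL/6 overlapped with 228 and 155 CPM, and the log2 fold change was 0.06 (SE 0.26, adjusted p 0.947); it was -0.18 without the Klrg1 S1pr5 Zeb2 cells.

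**Figure D2:**
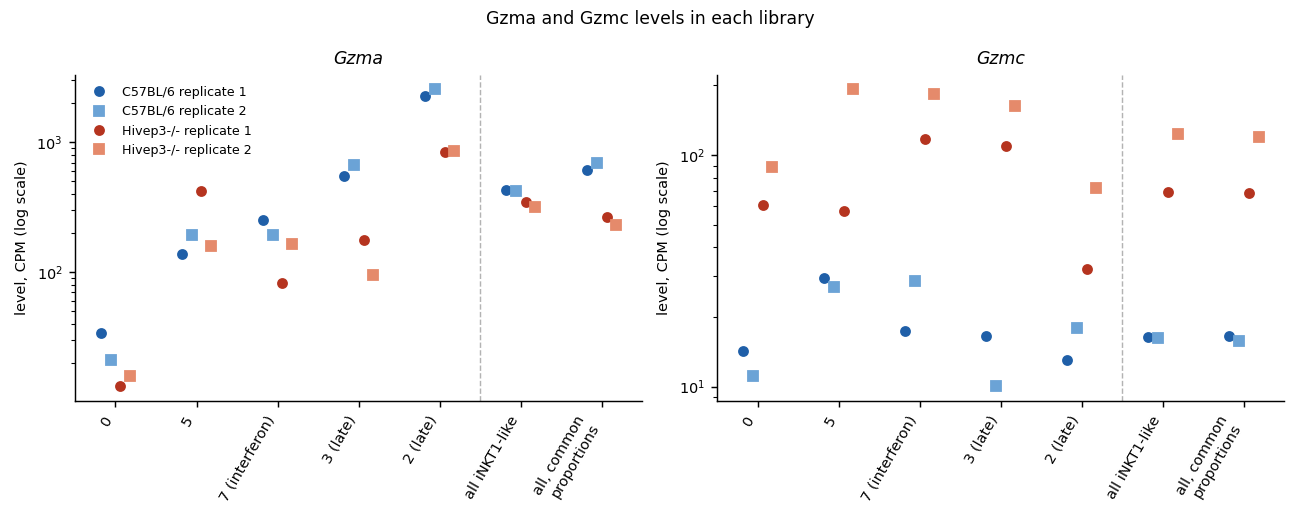
Level in CPM, on a log axis, of Gzma (left) and Gzmc (right) in each library (points) in the 5 iNKT1-like clusters, over all iNKT1-like cells, and over all iNKT1-like cells at common cluster proportions. In clusters 2 and 3 both libraries labelled Hivep3-/- lie below both C57BL/6 libraries for Gzma, and over all iNKT1-like cells they lie above them for Gzmc (69.1 and 123 against 16.4 and 16.2 CPM).

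Gzmc was higher in the libraries labelled Hivep3-/-, and the difference was called in 3 of the 5 iNKT1-like clusters. Over all iNKT1-like cells it had 214 and 199 UMIs, or 16.4 and 16.2 CPM, in C57BL/6 and 1467 and 1801 UMIs, or 69.1 and 123 CPM, in the libraries labelled Hivep3-/-. The log2 fold change was 2.49 (SE 0.30, adjusted p 0.0135). Gzmc was the only gene of the 8 called, beside 0.961% of the 10925 genes tested. It rose in cluster 0 (14.3 and 11.2 against 61.0 and 88.9 CPM, log2 fold change 2.48, adjusted p 0.0264), where 0.174% of genes were called, in cluster 3 (16.5 and 10.1 against 109.9 and 163 CPM, 3.25, adjusted p 0.00145) and in cluster 7 (17.5 and 28.7 against 118 and 183 CPM, 2.64, adjusted p 8.22e-04), where 0.43% of genes were called. Cluster 5 (2.07, adjusted p 0.115, with 0.506% of genes called and none of the 8) and cluster 2 (1.73, adjusted p 0.305) did not pass. In both clusters each library labelled Hivep3-/- was above each C57BL/6 library, which alone establishes no difference. The change in late cells (2.57, adjusted p 0.00561; 0.559% of genes called) and that in clusters 0, 5 and 7 (2.52, adjusted p 0.0357; 0.427%) were compared by an interaction, which was 0.08 (SE 0.19, adjusted p 0.944, not called).

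The call of Gzmc over all iNKT1-like cells rested on both C57BL/6 libraries, since without replicate 1 or 2 the adjusted p was 0.0621 and 0.106, with log2 fold changes of 2.51 and 2.48. Over all kept cells Gzmc rose by 2.82 on the log2 scale (5.20 and 8.93 against 43.7 and 61.7 CPM, adjusted p 0.0200; 0.765% of 12291 genes called); the call was lost without C57BL/6 replicate 1 (0.0553), Hivep3-/- replicate 1 (0.0670) or Hivep3-/- replicate 2 (0.0533). In cells thinned to 2000 UMIs, 1.70% and 2.48% of C57BL/6 iNKT1-like cells had a UMI of Gzmc, against 5.24% and 7.24% in the libraries labelled Hivep3-/-, while iNKT2-like cells stood at 0.406% ± 0.374 (SD, n = 4).

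Markers of other cytotoxic cells moved with the genotype too. The summed level of the 5 NK cell markers Ncr1, Eomes, Klra8, Klrb1f and Tyrobp in iNKT1-like cells was 39.8 and 39.7 CPM in C57BL/6 and 128 and 115 CPM in the libraries labelled Hivep3-/-. The rise came mainly through Tyrobp (20.7 and 17.6 against 81.6 and 72.9 CPM), Klrb1f (11.9 and 14.9 against 28.7 and 23.6 CPM) and Ncr1 (0.614 and 0.977 against 12.1 and 12.3 CPM). Klra8 was lower (6.45 and 6.27 against 2.59 and 3.61 CPM). Eomes was at 0 in C57BL/6 replicate 2 and no other marker of the list was at 0 in any library. Cd8a, of the CD8 T cell list, was at 0.921 and 1.22 against 19.0 and 16.0 CPM, and Cd8b1 at 2.84 and 1.71 against 2.17 and 3.001 CPM. In the late clusters Ncr1 was at 1.02 and 2.24 CPM in C57BL/6 against 20.5 and 21.6 CPM in the libraries labelled Hivep3-/-. Tyrobp was there at 39.9 and 39.7 against 154 and 128 CPM, and Cd8a at 1.28 and 2.88 against 26.0 and 24.9 CPM. Klra8 was lower there too (13.5 and 8.01 against 3.06 and 5.13 CPM). Cd3e was detected in 98.1% to 99.8% of the cells of each iNKT1-like cluster. Cluster 2, with Tyrobp and Ncr1 among its leading genes, held 461 and 275 cells of C57BL/6 and 846 and 755 cells labelled Hivep3-/-. Whether it holds the same state in both genotypes was not tested. The part of other cytotoxic cells in the granzyme differences was not tested either.

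Gzmb did not differ by genotype over iNKT1-like cells, at 479.5 and 782 CPM in C57BL/6 and 783 and 843 CPM in the libraries labelled Hivep3-/- (log2 fold change 0.29, SE 0.23, adjusted p 0.815). C57BL/6 replicate 1 was the low one, and without it the log2 fold change was -0.01. The log2 fold change of Gzmb was -0.37 in the late clusters and 0.65 in clusters 0, 5 and 7, neither called (adjusted p 0.876 and 0.494). The interaction of edgeR was -1.05 (SE 0.08, adjusted p 2.06e-07). The late and other clusters were chosen after the values were seen, so this p-value alone does not establish a difference between states. In the late clusters the levels were 649 and 1112 CPM against 629 and 797 CPM, which overlap, and in the others 407 and 670.2 CPM against 916 and 889.7 CPM, which do not.

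None of the other members was called in iNKT1-like cells. Prf1 was at 29.4 and 34.9 CPM in C57BL/6 and at 56.0 and 29.9 CPM in the libraries labelled Hivep3-/- (log2 fold change 0.32, adjusted p 0.808), and only Hivep3-/- replicate 1 stood out. Nkg7 was at 1623 and 1869.6 CPM against 1834 and 2003 CPM (0.06, adjusted p 0.961), and Serpinb9 at 46.7 and 52.8 CPM against 45.5 and 45.9 CPM, with no overlap (-0.20, adjusted p 0.777). Ctsw was at 1134 and 1061 CPM against 1495 and 1251 CPM, likewise without overlap, and did not pass the test (0.23, adjusted p 0.728). Fasl was at 135 and 71.7 CPM against 132 and 54.4 CPM (-0.26, adjusted p 0.915). Over the 8 genes the median log2 fold change was 0.15 in iNKT1-like cells, where that of all tested genes was -0.0027.

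**Figure D3:**
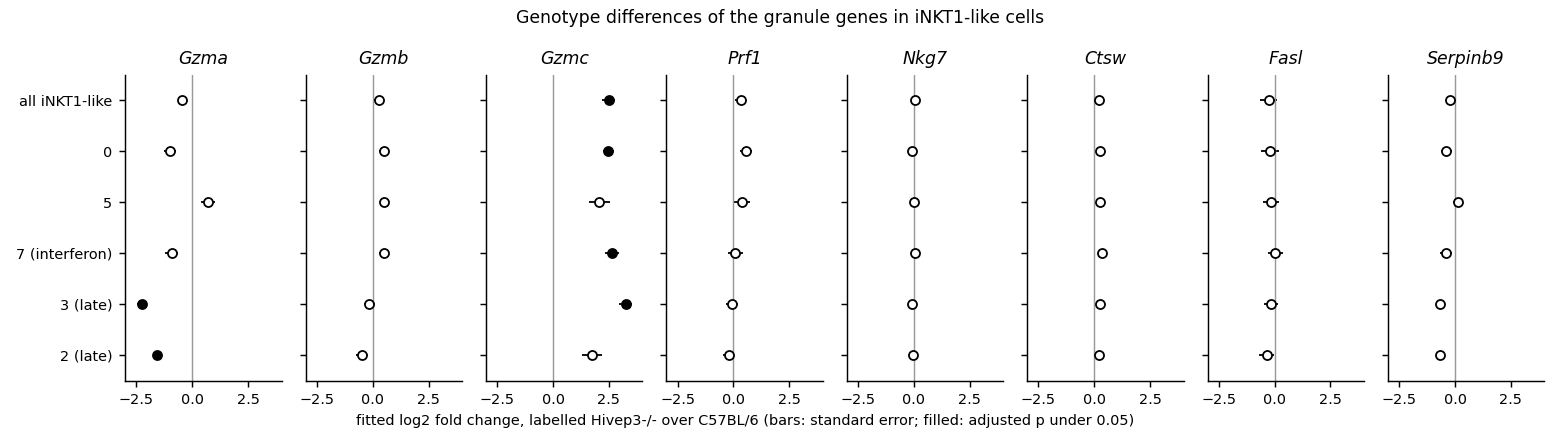
Fitted log2 fold change of each granule gene, libraries labelled Hivep3-/- over C57BL/6, in all iNKT1-like cells and in each iNKT1-like cluster (points, with bars of 1 SE; filled where the adjusted p was under 0.05). Gzma is filled to the left of 0 in clusters 2 and 3, Gzmc to the right of 0 over all iNKT1-like cells and in clusters 0, 3 and 7, and no other gene is filled.

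Outside iNKT1-like cells 4 to 7 of the 8 genes could be tested in each class. In cycling-like cells, where 7 of the 8 genes passed the filter on low counts, Nkg7 rose (47.1 and 47.0 against 145 and 122 CPM, log2 fold change 1.34, SE 0.14, adjusted p 0.00749) and Ctsw rose (246 and 241 against 535 and 425 CPM, 0.82, SE 0.13, adjusted p 0.0295), beside 2.75% of 10349 genes called. Both calls were lost without either C57BL/6 library (adjusted p 0.0596 and 0.0525 for Nkg7, 0.175 and 0.157 for Ctsw). Of the regulators of the cytotoxic programme, Il2rb was also higher in cycling-like cells (1.53, adjusted p 0.00538), and Id2 (-1.07, adjusted p 0.0145) and Tbx21 (-1.39, adjusted p 0.0436) were lower, and their part in these changes was not tested. Gzma in cycling-like cells of Hivep3-/- replicate 1, at 91.7 CPM against 5.37 to 9.17 CPM in the other libraries, came largely from 2 cells of cluster 10 that held 240 of its 249 UMIs in that cluster. In cycling-like cells Prf1 was called too by DESeq2 (361 of 10349 genes called), with a replicate block (741 of 10349) and with no correction between libraries (224 of 10246). Gzmc was called at resolution 1.2 (411 of 10314) and with the 8 genes allowed among the clustering genes (478 of 10270). All 8 genes passed the filter under these settings, against 7 in the main fit. A gene can pass it through the libraries where it is high, so these calls are no result about Gzmc. With no filter on low counts Gzma, Gzmb and Prf1 were called beside Nkg7 and Ctsw, and Gzmc was not (1057 of 15541). None of the members that passed the filter was called in stage 0-like (4 tested; 0.452% of genes called), iNKT2-like (6 tested; 0.253%) or iNKT17-like cells (5 tested; 0.105%), where 1 member in each class had an unadjusted p under 0.05 by edgeR (beside 8.51%, 8.88% and 5.64% of genes) and DESeq2 called none either. Other settings did call some of them: Gzma in iNKT17-like cells without C57BL/6 replicate 1, C57BL/6 replicate 2 or Hivep3-/- replicate 1, Gzma in iNKT2-like cells at resolution 0.4 and with no correction between libraries, Nkg7 in iNKT2-like cells without C57BL/6 replicate 1, and Nkg7 in stage 0-like cells with a replicate block and without Hivep3-/- replicate 2. With no filter on low counts, Gzma (iNKT17-like), Gzmb and Nkg7 (iNKT2-like) and Nkg7 (stage 0-like) were called. The genotype change in iNKT1-like cells exceeded that in iNKT2-like cells for Gzmb (interaction 1.57, SE 0.24, adjusted p 2.43e-05) and Nkg7 (0.80, SE 0.11, adjusted p 3.08e-06), 2 of the 8 genes, beside 5.38% of 11251 genes. In iNKT1-like cells their changes were 0.29 for Gzmb and 0.06 for Nkg7, neither called, so the interactions do not show a rise there. Gzmb was at 9.58 and 18.9 CPM in C57BL/6 iNKT2-like cells against 2.22 and 9.55 CPM, and by DESeq2 its interaction was not called (adjusted p 0.724).

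Gzma and Gzmb occurred in the same cells more often than their separate shares would give. To compare detection across depths, each iNKT1-like cell was thinned to 2000 UMIs and 433 shallower cells were left out (296 and 67 of C57BL/6, 44 and 26 of the libraries labelled Hivep3-/-). Gzma was then found in 12.48% ± 0.35 of C57BL/6 cells and 9.04% ± 1.36 of cells labelled Hivep3-/-, and Gzmb in 47.1% ± 7.21 and 49.2% ± 1.06 (SD, n = 2 each). Unthinned, Gzma was found in 15.0% and 14.7% against 11.2% and 12.1%, and Gzmb in 51.9% and 63.0% against 64.1% and 63.4%. In iNKT2-like cells at the same depth the shares were 0.621% ± 0.339 for Gzma and 1.32% ± 0.798 for Gzmb (n = 4 libraries; median depth before thinning 7373 to 9084 UMIs, against 3444 to 6435.5 in iNKT1-like cells).

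Both genes were found in 8.07% (95% exact binomial interval 7.16 to 9.05) and 8.89% (7.78 to 10.1) of iNKT1-like cells of C57BL/6 replicates 1 and 2, and in 5.69% (4.90 to 6.56) and 7.41% (6.39 to 8.53) of those labelled Hivep3-/-. These intervals cover counting error only. The number of cells with both was 1.39 to 1.51 times that given by the product of the shares. Of the Gzma-positive cells 63.4% and 72.6% in C57BL/6 and 70.4% and 74.1% in the libraries labelled Hivep3-/- also had Gzmb, against 38.9% and 49.3%, and 46.5% and 47.3%, of Gzma-negative cells. Conversely only 11.7% to 19.2% of Gzmb-positive cells had Gzma. The log2 odds ratio of the pair was 1.44 in C57BL/6 replicates 1 and 2 and in Hivep3-/- replicate 1, and 1.66 in Hivep3-/- replicate 2.

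Within clusters the link of Gzma and Gzmb had values that did not overlap between the genotypes, which 2 libraries against 2 cannot establish as a difference. The log2 odds ratio stratified by cluster was 0.80 and 0.69 in C57BL/6 and 1.89 and 2.25 in the libraries labelled Hivep3-/-, a difference of 1.32 with an exact permutation p of 0.333, the smallest possible. In cluster 2 the log2 odds ratios were 0.72 and 0.43 in C57BL/6 against 2.28 and 2.16, a difference of 1.65. In cluster 3 they were 0.26 and 0.16 against 2.40 and 2.32, a difference of 2.15. C57BL/6 cells with both genes were thus near the product of the shares, at 1.11 and 1.05 times it in cluster 2. In cluster 3 they were at 1.05 and 1.02 times it. In cluster 0 (1.64 and 0.48 against 0.57 and 1.11), cluster 5 (1.36 and 2.31 against 0.58 and 1.43) and cluster 7 (1.75 and 2.36 against 0.78 and 4.58) the log2 odds ratios of the genotypes overlapped. These values rest on few Gzma-positive cells, with 9 and 6 in cluster 0 of the libraries labelled Hivep3-/-. In cluster 7 of Hivep3-/- replicate 2 all 14 such cells had Gzmb, so a constant added to each count set the 4.58. In cluster 2, 50.6% and 52.7% of C57BL/6 cells had Gzma, with 56.0% and 55.1% of Gzmb-positive and 43.5% and 47.6% of Gzmb-negative cells. In the libraries labelled Hivep3-/- 17.5% and 24.6% of its cells had Gzma, with 33.2% and 40.1% of Gzmb-positive and 9.23% and 12.9% of Gzmb-negative cells. In cluster 3 the shares with Gzma were 23.1% and 24.2% against 7.96% and 4.92%. Of its few Gzma-positive cells labelled Hivep3-/- 86.3% and 87.5% had Gzmb, against 52.9% and 55.2% of the Gzma-negative ones. In C57BL/6 these shares were 64.1% and 78.0% of Gzma-positive cells against 59.9% and 75.8% of Gzma-negative cells. Gzmb itself was found in 56.9% and 67.9% of C57BL/6 cells of cluster 2 and in 34.5% and 42.9% of those labelled Hivep3-/-. In the late clusters together the share with Gzma differed by -20.2 percentage points (34.7% and 35.9% against 13.3% and 16.8%), and in clusters 0, 5 and 7 by -0.494 (3.42% and 3.76% against 3.43% and 2.77%), with two-sided exact permutation p of 0.333 and 0.667, where 0.333 is the smallest possible.

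**Figure D4:**
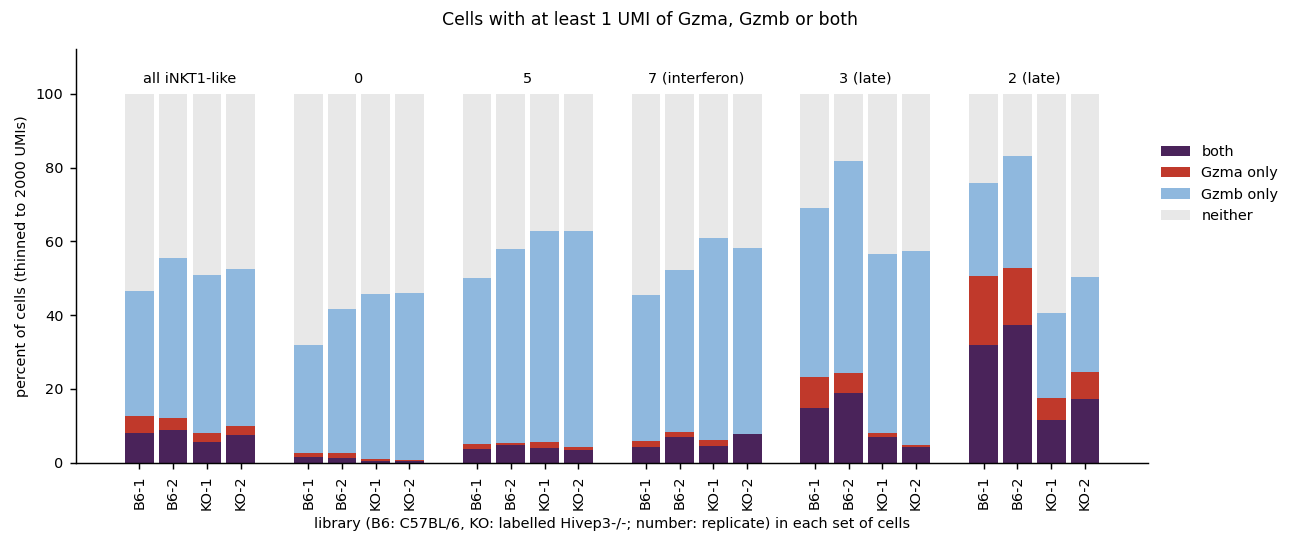
Share of cells with at least 1 UMI of both Gzma and Gzmb (purple), of Gzma only (red), of Gzmb only (blue) or of neither (grey), in cells thinned to 2000 UMIs, for each library over all iNKT1-like cells and in each iNKT1-like cluster. Cells with Gzma but not Gzmb make up 18.7% and 15.3% of cluster 2 in C57BL/6 and 6.04% and 7.39% in the libraries labelled Hivep3-/-.

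Cells with more Gzma had more of some granule genes and not of others. Among cells with 0, 1 to 2, 3 to 9 and 10 or more Gzma UMIs after thinning, Gzmb was found in 45.5% ± 4.58, 64.5% ± 6.10, 73.4% ± 5.92 and 74.6% ± 2.73 (SD, n = 4 libraries, with 58 to 104 cells of each library in the top class). Prf1 was found in 6.201% ± 2.34, 12.6% ± 2.72, 16.1% ± 5.51 and 21.3% ± 3.51 of these cells, and Serpinb9 in 7.41% ± 0.90, 16.3% ± 1.35, 14.2% ± 6.201 and 19.4% ± 5.11. For Prf1 and Serpinb9 every library was higher in the top class than with no Gzma. Gzmc showed no such order on average, at 4.17% ± 2.69, 3.33% ± 2.44, 5.14% ± 1.69 and 3.28% ± 1.62. From no Gzma to the top class, Gzmc rose in C57BL/6 replicates 1 and 2 (1.60% to 3.85% and 2.31% to 2.74%). It fell in the libraries labelled Hivep3-/- (5.42% to 1.35% and 7.35% to 5.17%). The top class held few Gzmc-positive cells, and neither direction was tested. Ctsw was at 88.6% to 93.0% and Fasl at 17.5% to 22.6% on average in the 4 classes.

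**Figure D5:**
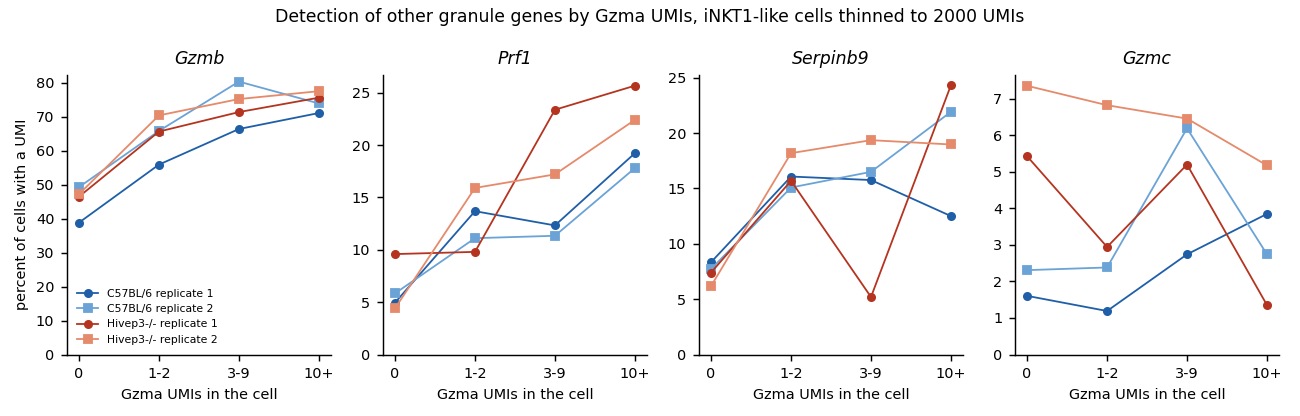
Percent of iNKT1-like cells with a UMI of Gzmb, Prf1, Serpinb9 and Gzmc (panels) by the number of Gzma UMIs in the cell, for each library (lines), in cells thinned to 2000 UMIs. Gzmb, Prf1 and Serpinb9 are found more often with 10 or more Gzma UMIs than with none in all 4 libraries. Gzmc is found more often only in the C57BL/6 libraries (3.28% against 4.17% on average over all 4).

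Of the 28 pairs among the 8 genes, 15 had a log2 odds ratio within clusters above 0 in all 4 libraries, and 1 pair, Ctsw and Serpinb9, was below 0 in all 4 (mean -0.17). The largest means were those of Gzma with Nkg7 (1.64, from 1.26 to 2.20 over libraries), Gzmb with Nkg7 (1.61, from 1.35 to 1.78), Prf1 with Nkg7 (1.501) and Gzma with Gzmb (1.41). Nkg7 was found in 91.4% to 93.8% of the thinned cells, so its pairs could hardly exceed the product of the shares: the cells with both were 1.06 times that number for Gzma with Nkg7 and 1.04 times for Gzmb with Nkg7, against 2.30 for Gzma with Prf1 and 1.99 for Gzma with Serpinb9. Gzma with Prf1 stood at 1.18 (0.77 to 1.97). Gzmb with its neighbour Gzmc stood at 0.92 (0.70 to 1.34), whereas Gzma with Gzmc was at 0.21 and took both signs (-0.59 to 0.70). The pairs of Gzmc with Prf1 (-0.23, with as few as 2 cells positive for both in a library) and with Serpinb9 (-0.14) also took both signs. The pairs share cells and depth, so these values are a description.

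The wider pathway was counted in iNKT1-like cells from lists of granule and killing genes, beside 0.961% of the 10925 genes tested that were called. Of the 7 other granzymes (Gzmd, Gzme, Gzmf, Gzmg, Gzmk, Gzmm and Gzmn) none was high enough to be tested. Of 16 genes of granule maturation and release, 15 were tested and 1 was called: Lyst, which regulates the size of lysosomes and granules, fell from 32.9 and 35.3 CPM to 20.2 and 16.4 CPM (log2 fold change -0.98, SE 0.15, adjusted p 0.0316). The call was lost without C57BL/6 replicate 1 (-1.02, adjusted p 0.116), C57BL/6 replicate 2 (-0.94, 0.172) or Hivep3-/- replicate 2 (-0.91, 0.0659), and without TMM scaling (-0.89, 0.0998). Srgn, the proteoglycan core of the granule, was at 958 to 1096 CPM in all 4 libraries. None of the 4 protease inhibitors tested of 5 and none of the 5 death ligands and receptors was called, with medians of 0.16 and 0.23 on the log2 scale. Of 12 regulators, all tested, none but Eomes was called. Eomes, a T-box factor of NK cells and memory CD8 T cells, passed it only through the libraries where it was high, so its call is no result about the list: it had 1 UMI in C57BL/6 and 102 UMIs, in 75 cells, in the libraries labelled Hivep3-/-, a ratio of levels of 71.9 (95% counting interval 12.6 to 2867). Tbx21 (-0.07, adjusted p 0.944) and Runx3 (0.08, adjusted p 0.944), which encode the T-bet and Runt factors of the cytotoxic programme, were not called.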

How the data were processed

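Thymic CD1d tetramer-binding iNKT cells of 2 C57BL/6 and 2 Hivep3-/- mice were profiled as 4 libraries, 1 per mouse. The authors deposited filtered UMI counts per gene and cell, made with Cell Ranger 3.1.0 on mm10, and analysed them with Seurat 3.1.4. Counts from 5' chemistry carry no transcript length, so levels were not compared between genes.

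Cells with at least 500 and under 4100 genes, at least 1000 UMIs and under 6% mitochondrial UMIs were kept. They were clustered (2000 variable genes, 30 components, 20 neighbours, resolution 0.8; R 4.3.3, Seurat 5.3.0, irlba 2.3.5.1, RANN 2.6.2) with a mutual-nearest-neighbour correction between libraries and without the 8 genes, 26 genes of the study and 6 sex-linked genes. Clusters were named from marker lists, and names may differ from those of the study. UMIs were summed per library and class, and genotypes compared with edgeR 4.0.16 (quasi-likelihood, TMM, p adjusted by Benjamini-Hochberg over all genes tested; limma 3.58.1 loaded with it), with DESeq2 1.42.0 as an alternative. SEs were taken as the absolute log2 fold change over the square root of F. Single values were compared by two-sided exact permutation tests (scipy 1.17.1), and p-values measure only the spread between libraries. Replicate numbers only name mice. Shares of cells were taken after thinning each cell to 2000 UMIs. Scrublet marked 0, 4, 1 and 5 cells, which was taken as a failure, so removing the 5% of cells with the highest scores (362, 183, 230 and 208) was an alternative. Other alternatives were the filter, scaling, clustering, thinning depth and leaving out each library. The statistics were tested on simulated data.

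The genes named are the 8 members, the 5 genes most like Gzma and Gzmb, and the called genes of the pathway lists; Srgn, Tbx21 and Runx3 were added after their values were seen. Members and lists were chosen with earlier results of these data known. The scoring of cluster names, the split into late and other iNKT1-like clusters, and the Klrg1 S1pr5 Zeb2 cells were chosen after seeing the data.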

Additional observations from a re-analysis of the deposited data

Results flagged for a closer look

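The genotype change of 2 genes differed between iNKT1-like and iNKT2-like cells by the interaction test of edgeR: Gzmb by 1.57 on the log2 scale (adjusted p 2.43e-05) and Nkg7 by 0.80 (adjusted p 3.08e-06), beside 5.38% of 11251 genes called. DESeq2 called Nkg7 and not Gzmb (adjusted p 0.724). The change of 2 genes also differed between the late and the other iNKT1-like clusters, that of Gzma by -1.97 (adjusted p 3.32e-06) and that of Gzmb by -1.05 (adjusted p 2.06e-07), beside 0.803% of 10712 genes called, and DESeq2 called both. The late and other clusters were set apart after the values were seen, so their interaction p-values alone do not establish a difference. No group had the 4 samples needed to look for a single sample far from the others.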

How the results depend on the processing

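Of the values recomputed without 1 library, 197 were rated the same, 11 reversed, 18 stronger, 17 weaker and 5 moved. Under the other alternatives the counts were 371, 1, 13, 2 and 51. A fold change was the same if its direction and side of the threshold held, and stronger or weaker if it gained or lost a call. A number of calls was the same if it changed little, and otherwise stronger or weaker. Other values, which have no threshold, were the same within the SD and otherwise moved. A single library left in a genotype was assumed to vary like those of the other. For what follows the cause was not tested. The number of granule genes called in the 4 other classes was 2, and it was 9 with no filter on low counts (where all genes called went from 285 of 10349 to 1057 of 15541 in cycling-like cells), 4 with no correction between libraries and 1 to 6 without 1 library. Over the 5 iNKT1-like clusters it was 5, against 11 with no filter (17 of 9793 genes to 266 of 14342 in cluster 0) and 6 to 10 without 1 library. Without 1 library it was 0 to 1 in iNKT1-like cells and 0 to 1 in the other iNKT1-like clusters, 0 to 2 over all kept cells (5 with no filter, as all genes called went from 94 of 12291 to 965 of 17680), 2 to 4 for the difference between late and other clusters, and 2 to 4 for that between iNKT1-like and iNKT2-like cells (1 by DESeq2). In iNKT1-like cells the log2 fold change ranged, without 1 library, from -0.0100 to 0.68 for Gzmb, -0.0775 to 0.19 for Nkg7, -0.94 to 0.29 for Fasl and -0.11 to 0.65 for Prf1. Its sign turned without C57BL/6 replicate 1 for Gzmb, Nkg7 (-0.03) and Fasl, without Hivep3-/- replicate 2 for Nkg7 and Fasl (0.20), and without Hivep3-/- replicate 1 for Prf1. That of Gzma over all kept cells ranged from -0.23 (C57BL/6 replicate 1 left out) to 0.44, with -0.21 when Hivep3-/- replicate 1 was left out, and it was -0.18 without the Klrg1 S1pr5 Zeb2 cells. In cluster 5 it ranged from -0.0855 (Hivep3-/- replicate 1 left out) to 1.18. The difference of Gzmc between late and other clusters ranged from -0.0469 (Hivep3-/- replicate 1 left out) to 0.23, with -0.0131 when C57BL/6 replicate 2 was left out.

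The log2 odds ratio of Gzma and Gzmb over iNKT1-like cells (1.499; 1.44 to 1.52 without 1 library) was 1.12 with the members allowed among the clustering genes, 1.33 and 2.06 with cells thinned to 1000 and 4000 UMIs, 2.003 without thinning and 1.23 with detection at 2 UMIs or more. Its difference between genotypes (0.11; -0.00 to 0.22 without 1 library) was 0.45, -0.10, -0.19 and 0.25 under the first 4 of these. The difference within clusters (1.32; 1.14 to 1.501) was 1.06 at resolution 0.4, 0.94 with no correction between libraries, 0.73 at 1000 UMIs and 1.10 at 2 UMIs or more. The difference in the share with both genes (-1.93 points; -2.79 to -1.07) was -3.54 with the members allowed, -3.85 at 4000 UMIs and -0.57 at 2 UMIs or more, and that in the share of late cells with Gzma (-20.2 points; -21.9 to -18.5) was -18.2 at 1000 UMIs and -22.2 without thinning. Gzma at common cluster proportions (-1.39; -1.498 to -1.25) was -1.74 at resolution 1.2 and -1.62 without the Klrg1 S1pr5 Zeb2 cells. The span between iNKT1-like clusters, 6.28 for Gzma and 0.93 for Gzmb, was 4.30 and 0.54 at resolution 0.4, 7.56 and 1.85 at resolution 1.2, 4.40 and 1.195 with no correction between libraries, and 4.07 and 0.70 with the members allowed.

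Same-numbered libraries deviated together with a correlation of 0.099 in iNKT1-like cells, so the numbers were not taken to pair mice. With a replicate block the number of calls in the 4 other classes was 4 and over the 5 clusters 7, and the log2 fold change of Gzmc in iNKT1-like cells was 2.41. Without TMM scaling the median log2 fold change of all genes was 0.12 instead of 0.025 over all kept cells, 0.14 instead of 0.015 in stage 0-like cells and 0.18 instead of 0.024 in cycling-like cells, where 66.8% of called genes were higher in the libraries labelled Hivep3-/- instead of 49.1%. That share was 71.8% instead of 60% in the other iNKT1-like clusters, 66.7% instead of 52.9% in cluster 0 and 37.5% instead of 17.5% in stage 0-like cells. Depth limits the low genes most, with a median of 3444 UMIs in the shallowest iNKT1-like library.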

Other observations

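Cells with many Gzma UMIs were also met outside the iNKT1-like clusters. In the unnamed cluster 8, led by Tnni1, Htra3 and Klrb1a, the cells with 10 or more Gzma UMIs were 5 of 188 in C57BL/6 replicate 1, holding 114 of 139 UMIs, 2 of 32 in C57BL/6 replicate 2, holding 42 of 48, and 1 in each library labelled Hivep3-/-, holding 126 of 142 and 25 of 44. Of the cells of cluster 8, 43.6% and 40.6% in C57BL/6 and 15.9% and 14.2% in the libraries labelled Hivep3-/- were among the 5% of their library with the highest doublet scores, and the part of doublets was not tested. In the cycling-like cluster 10, 2 of 47 cells of Hivep3-/- replicate 1 held 240 of 249 UMIs. No iNKT2-like cell held more than 6 Gzma UMIs and no stage 0-like cell more than 3. The 47 Klrg1 S1pr5 Zeb2 cells had 477 CPM of Tbx21, 39277 CPM of Ccl5 and 424 CPM of Tyrobp, and no UMI of Cd8b1.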
